A study of Homo sapiens with 6 samples.

Results

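The genes described here make and regulate polyamines: the synthesis enzymes ODC1, AMD1, SRM and SMS, the antizymes OAZ1 and OAZ2, the antizyme inhibitor AZIN1 and the acetyltransferase SAT1. They were taken by symbol, 8 of the 35615 symbols in the deposited table, and all 8 were among the 14543 genes with enough counts to be tested. The members were proposed with the contrast of the miR-92a-1-5p mimic against the control mimic already in view, so their values in it are given as a description, without p-values. The samples are cultures of K562, a human erythroleukaemia line with the BCR-ABL1 fusion, derived from a chronic myeloid leukaemia in blast crisis. The 3 miR92a cultures, labelled as miR-92a overexpression, received an hsa-miR-92a-1-5p mimic by nucleofection (500 pmol for 5 M cells), and the 3 scramble cultures, labelled as control, with the same amount of a negative-control mimic. All 6 cultures received imatinib, an inhibitor of the BCR-ABL1 kinase, at 1 µM, added 4 h after the nucleofection and left for 24 h until RNA extraction. The 3 libraries of each group are labelled as biological replicates. The mimic was a transient transfection in 1 cell line, and cultures without imatinib were not analysed here.

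Polyamines are small, positively charged molecules that bind RNA and DNA and are needed for growth and for protein synthesis. ODC1 decarboxylates ornithine to putrescine, AMD1 makes the aminopropyl donor from S-adenosylmethionine, SRM adds an aminopropyl group to putrescine to give spermidine, and SMS adds another to give spermine. Antizymes bind ODC1 and send it to the proteasome, AZIN1 resembles ODC1 and holds antizymes back, and SAT1 acetylates spermidine and spermine, which starts their export or breakdown. ODC1 is a textbook target of the transcription factor MYC, and proliferating blood cells are rich in polyamines.

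The library totals were 0.704 M counts in miR92a 1 and 24.8 to 26.0 M in the other 5 libraries, so miR92a 1 was 36.0-fold shallower than the median of the others. Members had 26 to 441 counts in miR92a 1 and 869 to 19876 elsewhere, and intervals given for miR92a 1 are exact Poisson intervals at 95%, which cover counting error only. The libraries numbered 3 stood apart in both groups. A chi-square per gene was 43.8 between miR92a 2 and 3 and 43 to 48.4 between scramble 3 and scramble 1 or 2. It was 4.83 between scramble 1 and 2. Pairs with miR92a 1 gave 1.81 with miR92a 2 and 4.65 with miR92a 3. The chi-square grows with depth, so the pairs with miR92a 1 compare with each other and not with the rest. All 11 erythroid and leukaemia line markers were present, with summed levels of 9820 to 18900 CPM (counts scaled to a common library size) in the miR92a and 12400 to 20000 CPM in the scramble libraries. The labels call the cells myeloblasts, but 5 granulocyte precursor markers summed to at most 4.84 CPM in miR92a and 9.27 CPM in scramble libraries, and MPO was at 0 counts in all 6. The 6 markers of other cells, mostly through the epithelial genes EPCAM and KRT8, summed to 292 to 364 CPM in miR92a and 313 to 366 CPM in scramble libraries, which overlap.

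The sequences below show the mimicked strand and its matches in the 3′ UTRs of the genes described. A microRNA guides its silencing complex to messenger RNAs that pair with its seed, bases 2 to 8, which are in capitals in the mature strand (RefSeq, GRCh38.p14, chromosome 13). Matches of at least 7 bases were sought as CCCAACC and CCAACCA, with CCCAACCA as the 8mer, on the sense strand of GENCODE v29 transcripts (GRCh38), taking the longest annotated 3′ UTR per gene. Among the members, SRM held a match, of the 7mer-A1 type, and the other 7 held none. Of 18434 genes with a 3′ UTR 16% held a match, and of 33 other pathway genes 4 did (EIF5A2, MTAP, MXD1 and SLC7A1). The match of EIF5A2, printed because it was the pathway gene that passed the test, is given beside it, with the matched bases in capitals. It is of the 7mer-A1 type (CCAACCA), as is that of SRM. The matches not printed are CCCAACC (7mer-m8) in MXD1 and in SLC7A1, and an 8mer and a 7mer-A1 in MTAP. On group alone, the log2 fold changes (± SE) were -0.63 ± 0.28 for SRM and -1.28 ± 0.25 for EIF5A2. They were -0.27 ± 0.40 for MTAP, -0.14 ± 0.18 for MXD1 and 0.19 ± 0.19 for SLC7A1. Whether a match bears on these values was not tested. Further values of MTAP, MXD1 and SLC7A1 are given with the other pathway genes.
hsa-miR-92a-1-5p: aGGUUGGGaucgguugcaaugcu
SRM 3′ UTR: gctctcgcccaCCAACCAagtgttacaagc
EIF5A2 3′ UTR: ccagcccctttCCAACCAtttctaagtaga
The SRM match lies at chr1:11054753-11054759 on the minus strand, at base 106 of a 3′ UTR of 276 bases, and that of EIF5A2 at chr3:170892133-170892139 on the minus strand, at base 1221 of 4945. A match describes letters in the annotated transcript. Which 3′ UTR forms K562 cells use was not measured. For hsa-miR-92a-3p, the partner strand that was not transfected, AZIN1 was the 1 member of 8 with a match. Of the 33 other pathway genes 7 held a match to it, and of the 18434 genes with a 3′ UTR 18.4% did.

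ODC1, the entry enzyme of the pathway, differed little between the groups outside the replicate 3 pair. It had 419, 448 and 383 CPM in miR92a 1, 2 and 3, against 421, 404 and 276 CPM in scramble 1, 2 and 3 (counts scaled by the trimmed mean of M-values, TMM). Scramble 3 was the low library, and the groups overlapped. The means were 417 ± 32.2 and 367 ± 79.2 CPM (SD, n = 3 each), and the log2 fold change was 0.18 ± 0.16 (SE). Between same-numbered libraries ODC1 differed by -0.01, 0.15 and 0.47 on the log2 scale, so most of the difference came from the libraries numbered 3, and without scramble 3 the log2 fold change was 0.01.

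AMD1, the S-adenosylmethionine decarboxylase, showed a small difference in the other direction. Its levels were 167, 142 and 169 CPM in the miR92a libraries, against 174, 161 and 188 CPM in the scramble libraries. Each miR92a library was below its same-numbered scramble library, with differences of -0.06, -0.18 and -0.16 on the log2 scale, but the groups overlapped and the log2 fold change was -0.14 ± 0.11 (SE, n = 3 each). It was -0.05 without miR92a 2, -0.08 without scramble 3 and -0.41 with all libraries thinned to the depth of miR92a 1. The AMD1 pseudogenes in the table had at most 23 counts in any library.

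The enzymes that add aminopropyl groups differed in opposite directions: SRM, the spermidine synthase, was lower and SMS, the spermine synthase, higher in the miR92a libraries. SRM had 65.3, 66.2 and 45.1 CPM in miR92a 1, 2 and 3, against 104, 109 and 52.8 CPM in scramble 1, 2 and 3. The groups overlapped because scramble 3 lay below miR92a 1 and 2, yet within each number the miR92a library was lower, with differences of -0.66, -0.72 and -0.23 on the log2 scale. The means were 58.9 ± 11.97 CPM in miR92a and 88.6 ± 31.1 CPM in scramble libraries (SD, n = 3 each), for a log2 fold change of -0.63 ± 0.28 (SE), the lowest of the 8 members. The value in miR92a 1 rests on 48 counts (48.2 to 86.6 CPM). Without scramble 3 the log2 fold change was -0.90.

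SMS was the only member whose groups did not overlap, with miR92a above; in either direction 21.2% of all tested genes did not overlap, and in that direction 9.73%. It had 107, 122.7 and 117 CPM in the miR92a libraries, against 104, 96.5 and 91.5 CPM in the scramble libraries. The closest values, in the libraries numbered 1, differed by less than the counting error of miR92a 1 (79 counts, 85.1 to 134 CPM). The log2 fold change was 0.26 ± 0.10 (SE, n = 3 each), and the differences by number were 0.04, 0.35 and 0.36.

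The antizyme messages were level between the groups. OAZ1 had 600, 672 and 797 CPM in the miR92a libraries, against 675, 685 and 735 CPM in the scramble libraries. Its lowest and its highest value were both in miR92a libraries, and the log2 fold change was -0.01 ± 0.11 (SE). OAZ2 had 35.4, 38.2 and 34.8 CPM in the miR92a libraries, against 38.4, 34.7 and 36.5 CPM in the scramble libraries, with a log2 fold change of -0.01 ± 0.11. The signs of these 2 values changed with the processing. Both messages carry the site at which ribosomes shift frame when polyamines are high, a codon followed by a stop, in capitals below. Full-length antizyme is made only by ribosomes that shift there, so its amount does not follow from message counts, which are all that was measured.
OAZ1 frameshift site: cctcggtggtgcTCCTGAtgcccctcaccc
OAZ2 frameshift site: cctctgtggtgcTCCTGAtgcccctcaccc
These windows (GENCODE v29, chr19:2271428-2271457, plus strand, and chr15:64691501-64691530, minus strand) share 29 of 30 bases. They were read from models without the shifted coding frame, since the annotated coding models skip 1 base here.

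AZIN1, the antizyme inhibitor, had 162, 161 and 130 CPM in the miR92a libraries, against 183, 172 and 149 CPM in the scramble libraries. Each miR92a library was lower than its same-numbered partner, with differences of -0.18, -0.10 and -0.19 on the log2 scale. The value in miR92a 1 rests on 119 counts (134 to 194 CPM), an interval that covers scramble 1. The groups overlapped, since scramble 3 lay below miR92a 1 and 2, and the log2 fold change was -0.17 ± 0.12 (SE, n = 3 each). It was -0.06 without miR92a 3, -0.10 without scramble 1 and -0.25 without scramble 3. In 1 random draw that thinned all libraries to the depth of miR92a 1 it was -0.32.

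SAT1, the catabolic member, was lower with the mimic in each numbered pair, with differences of -0.52, -0.12 and -0.64 on the log2 scale. It had 36.7, 48.9 and 56.7 CPM in miR92a 1, 2 and 3, against 52.8, 53.2 and 88.4 CPM in scramble 1, 2 and 3. Scramble 3 was the highest library, and miR92a 3 lay above scramble 1 and 2, so the groups overlapped. The log2 fold change was -0.38 ± 0.23 (SE), and it was -0.08 without scramble 3. The lowest value rests on 27 counts (24.2 to 53.4 CPM).

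**Figure D1:**
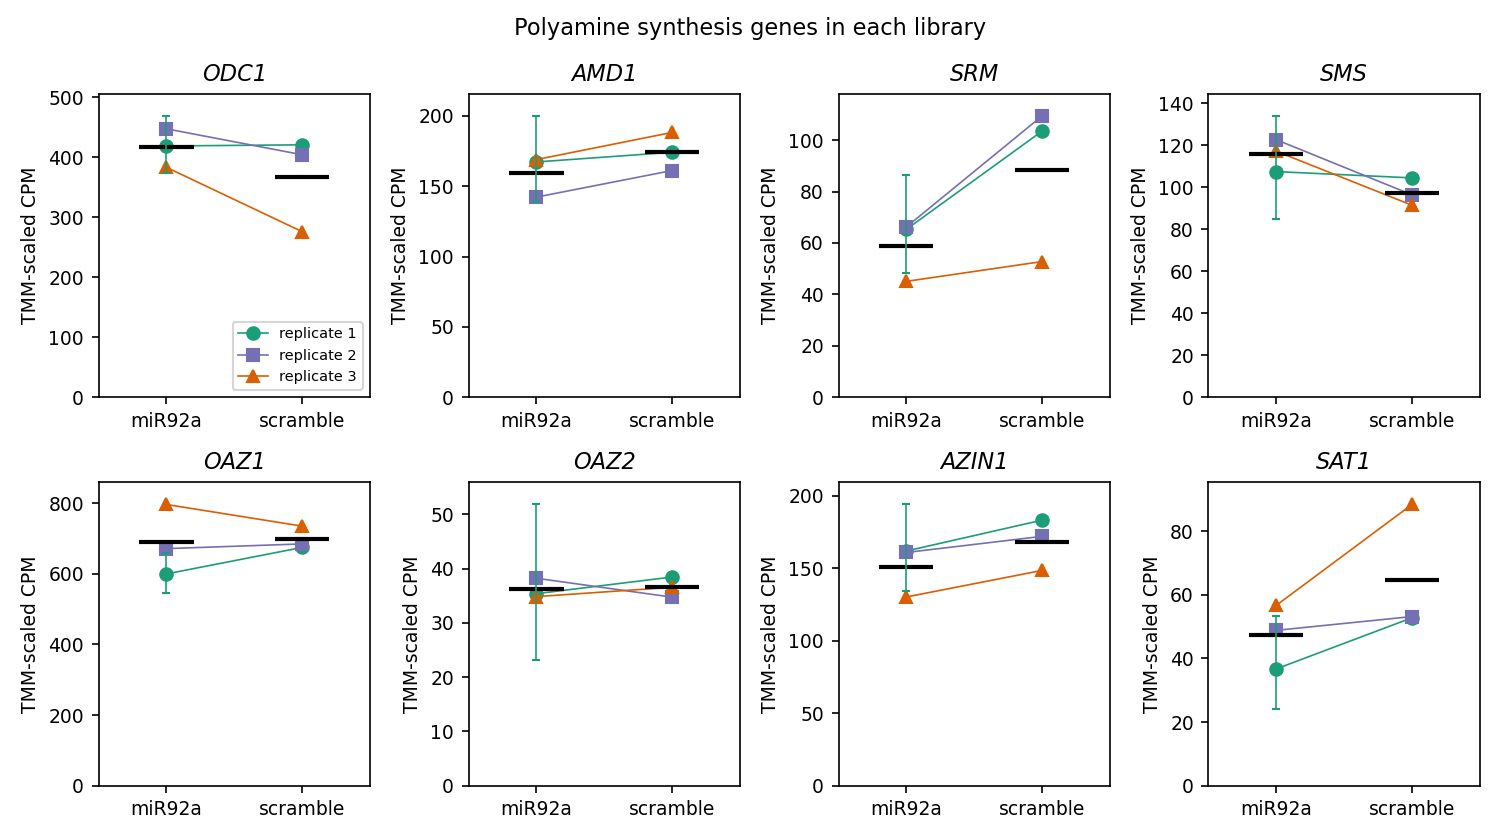
TMM-scaled CPM of the 8 genes in each library, with miR92a left and scramble right; lines join libraries with the same replicate number, black bars are group means (n = 3), and the error bar on miR92a 1 is its 95% Poisson interval. SRM shows both libraries numbered 3 below the rest, SAT1 shows scramble 3 above the rest, and SMS is the gene whose groups do not overlap.

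At a Benjamini-Hochberg adjusted p of 0.05 in the edgeR quasi-likelihood test on group alone, 0 of the 8 members passed, where 1.41% of all tested genes did. At an unadjusted p under 0.05 it was 1 member, where 13.5% of all tested genes had such a p, and DESeq2 and limma-voom called 0. With the replicate number as a block, SRM and SAT1 passed as lower and SMS as higher, 3 of 8 where 11.3% of all tested genes passed. Since the members were proposed with this contrast known, nothing is read from these counts. The matching of the libraries numbered 1 and 2 between the groups is also uncertain, as given with the processing. The blocked log2 fold changes were -0.51 ± 0.11 for SRM, -0.40 ± 0.11 for SAT1 and 0.29 ± 0.09 for SMS (SE). With the pair numbered 1 or 3 left out of the blocked fit SRM and SMS passed, and with the pair numbered 2 left out SAT1 alone. The median log2 fold change of the members was -0.08, and that of all tested genes was -0.01. Of the 8 members 5 had the same sign in all 3 numbered pairs (AMD1, SRM, AZIN1 and SAT1 lower, SMS higher), where 44.4% of all tested genes did (24.5% lower and 19.9% higher). For AMD1, AZIN1, SAT1 and SMS the Poisson interval of miR92a 1 covered the value of scramble 1.

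**Figure D2:**
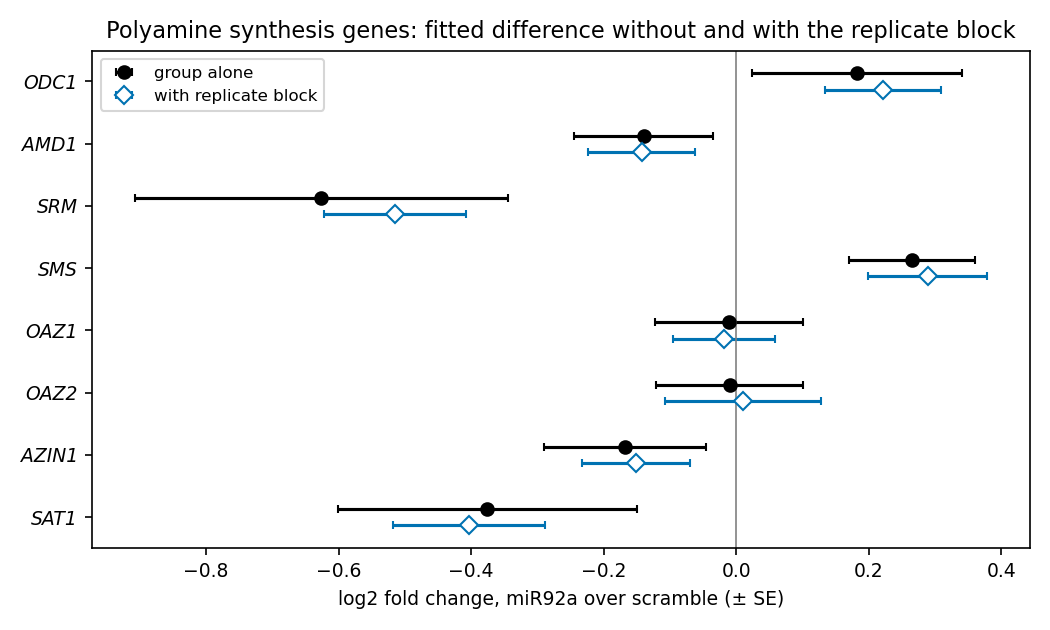
Log2 fold change of each gene, miR92a over scramble, with its SE, from the fit on group alone (black circles) and with the replicate number as a block (open diamonds). SRM lies lowest, at -0.63 and -0.51, SMS highest, and the antizymes OAZ1 and OAZ2 sit at 0 within their SE.

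The differences between replicate numbers were as large as those between the groups for several members. Relative to the mean of the libraries numbered 1 and 2, SRM differed by -0.55 on the log2 scale in miR92a 3 and by -1.01 in scramble 3. For ODC1 these differences were -0.18 in miR92a 3 and -0.58 in scramble 3, and for MYC -0.21 and -0.52. SAT1 was higher by 0.42 in miR92a 3 and by 0.74 in scramble 3. For these genes the miR92a libraries therefore spread less between numbers than the scramble libraries. OAZ1 went the other way, higher by 0.33 in miR92a 3 and by 0.11 in scramble 3. AMD1 was also higher in both libraries numbered 3, by 0.13 in miR92a 3 and 0.17 in scramble 3, and AZIN1 was lower, at -0.31 in miR92a 3 and -0.26 in scramble 3. The labels do not say what the libraries numbered 3 share, and its part in the results was not tested.

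Ratios of counts within a library do not depend on scaling between libraries. The ratio of ODC1 to OAZ1 counts was 0.698, 0.666 and 0.481 in miR92a 1, 2 and 3, against 0.624, 0.590 and 0.376 in scramble 1, 2 and 3. It was higher in the miR92a library of each number, by 0.16, 0.17 and 0.36 on the log2 scale, while the groups overlapped. The ratio in miR92a 1 rests on 308 and 441 counts, and its counting error was not computed. The mean log2 ratios differed by 0.23, and by 0.00134 without scramble 3. The other ratios were chosen after the values were seen. The ratio of SRM to SMS counts was 0.608, 0.540 and 0.384 in miR92a 1, 2 and 3, against 0.990, 1.13 and 0.577 in scramble 1, 2 and 3. On the log2 scale it averaged -0.996 ± 0.34 in miR92a and -0.21 ± 0.52 in scramble libraries (SD, n = 3 each), and the groups overlapped at scramble 3. By number it was lower with the mimic, with differences of -0.70, -1.07 and -0.59. The ratio of SAT1 to ODC1 counts was also lower in each miR92a library than in its partner, with differences of -0.52, -0.27 and -1.11 on the log2 scale. The groups overlapped, since miR92a 3 (0.148) lay above scramble 1 (0.126) and scramble 2 (0.132). The value in miR92a 1 rests on 27 SAT1 counts, and its counting error was not computed.

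**Figure D3:**
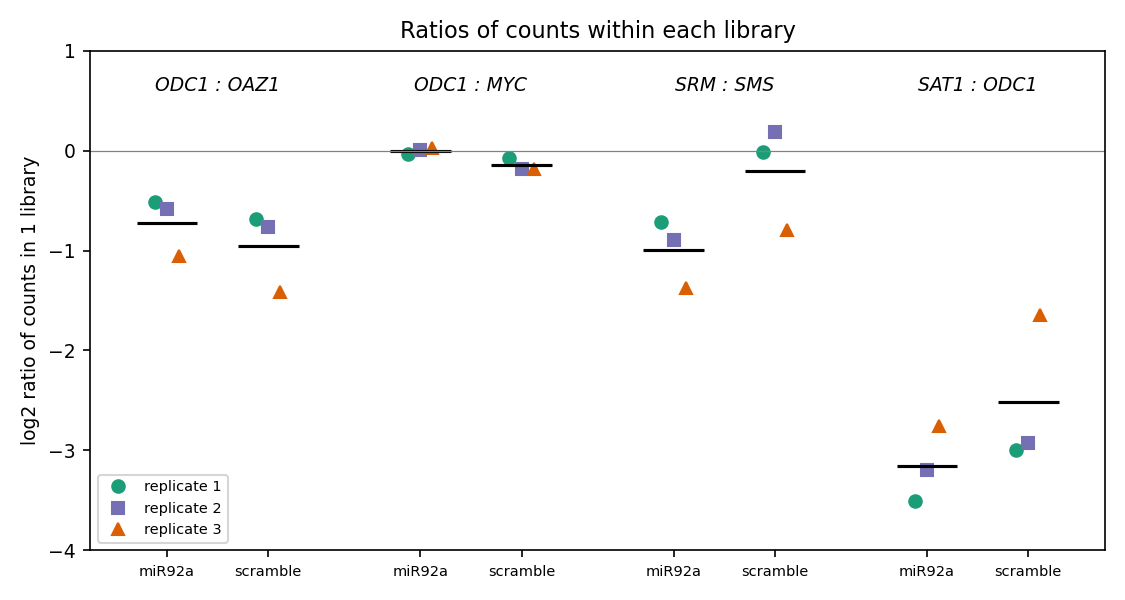
Log2 ratio of the counts of 2 genes in the same library, miR92a left of scramble in each pair of columns, with points for libraries and bars for means (n = 3). The SRM to SMS ratio is lower in each miR92a library than in the scramble library of the same number, and ODC1 to MYC varies least.

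Of the ratios computed, that of ODC1 to MYC counts varied least between libraries of a group. The ratio of ODC1 to MYC counts was 0.978, 1.005 and 1.017 in miR92a 1, 2 and 3, against 0.953, 0.882 and 0.883 in scramble 1, 2 and 3, so it was higher in all 3 miR92a than in all 3 scramble libraries. The value of miR92a 1 rests on 308 and 315 counts and has an exact 95% interval of 0.833 to 1.15 (Clopper-Pearson on the share of ODC1), which covers the 3 scramble values. MYC itself had 429, 445 and 377 CPM in the miR92a libraries, against 442, 458 and 313 CPM in the scramble libraries, with scramble 3 again the low library. MYC binds the E-box CACGTG, which reads the same on both strands, and promoters were searched for it because ODC1, SRM and MYC were all low in the libraries numbered 3. Of 10 RefSeq promoter windows of the members (250 bases before to 50 after an annotated start, GRCh38.p14, 7 of 8 members matched), 2 held the motif, and 7.26% of all 35116 windows did. These are the SRM window, with the motif at -199 from the start, and the window of an alternative ODC1 start within the gene, with 1 motif just before the start and 1 just after it. Their parts before the start and outside annotated exons (chr1:11060025-11060268 and chr2:10448013-10448120, minus strand) are printed with the motif in capitals.
SRM promoter: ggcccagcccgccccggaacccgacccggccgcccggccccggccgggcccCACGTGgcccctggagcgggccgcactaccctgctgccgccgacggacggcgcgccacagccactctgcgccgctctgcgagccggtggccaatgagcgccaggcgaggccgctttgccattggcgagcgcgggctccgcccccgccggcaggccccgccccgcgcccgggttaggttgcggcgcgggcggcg
ODC1 alternative promoter: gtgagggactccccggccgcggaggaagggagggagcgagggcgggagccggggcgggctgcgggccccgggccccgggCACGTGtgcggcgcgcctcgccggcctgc
The other ODC1 window (chr2:10448278-10448577, minus strand) held 0 motifs. AZIN1, also lower in both libraries numbered 3, was the member without a window. The motif is a description of these letters, and MYC binding was not measured. Whether MYC bears on the levels in the libraries numbered 3 was not tested.

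Levels were compared between members per length, as CPM per kilobase of the principal GENCODE v29 transcript. OAZ1 was the highest, at 601 ± 86.7 in miR92a and 608 ± 28.2 in scramble libraries (SD, n = 3 each), and ODC1 was next, at 157 ± 12.1 and 138 ± 29.9. In the scramble libraries SRM (70.0 ± 24.6), SAT1 (60.9 ± 19.2), SMS (53.1 ± 3.59) and AMD1 (50.8 ± 3.94) followed. The wide spreads of SRM and SAT1 covered the means of all of these, while those of SMS and AMD1 covered only each other. In the miR92a libraries SMS (63.0 ± 4.204) stood above SRM (46.5 ± 9.46), AMD1 (46.4 ± 4.35) and SAT1 (44.5 ± 9.46), which lay within each other's spread. AZIN1 was lower, at 32.0 ± 3.83 in miR92a and 35.6 ± 3.75 in scramble libraries, and OAZ2 the lowest, at 18.7 ± 0.94 and 18.9 ± 0.96.

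The genes most like 3 of the members across the 6 libraries were taken by Pearson's r of log2 CPM among 2238 genes with a mean of at least 100 CPM. For ODC1 they were GANAB, a glucosidase subunit of the endoplasmic reticulum (r = 0.995), CDC20, an activator of the anaphase-promoting complex (0.991), and YWHAH, a 14-3-3 protein (0.988). For AMD1 they were BIRC6 (0.977), ANKRD13A (0.962) and RSF1 (0.958). For SAT1 they were ERMAP, an erythroid membrane protein (0.988), DCAF6 (0.986) and NACA (0.985). These are the top ranks over 6 libraries that share the group difference and the difference of the libraries numbered 3, and they describe these libraries only.

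Other genes of the pathway came from a list of 33, of which 30 had enough counts; SATL1, SLC12A8 and MYCN did not. By the edgeR test on group alone 1 of the 30 fell and 0 rose, where 0.976% of all tested genes fell and 0.433% rose. With the replicate block 2 fell and 1 rose, where 6.70% and 4.57% of all tested genes did. The groups did not overlap for 4 of the 30 (EIF5A2 with miR92a below, and EIF5A, MAT2B and APIP with miR92a above), where 21.2% of all tested genes did not overlap, 11.5% with miR92a below and 9.73% with miR92a above. The median log2 fold change of the 30 was -0.03 without and 0.02 with the block.

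The gene that fell was EIF5A2, a paralog of the translation factor EIF5A, a protein whose hypusine residue is built from spermidine. It had 1.36, 2.94 and 2.97 CPM in the miR92a libraries, against 6.94, 7.19 and 6.57 CPM in the scramble libraries, and the groups did not overlap. The log2 fold change was -1.28 ± 0.25 (SE, edgeR adjusted p = 0.0475, n = 3 each), and with the block it was -1.27 ± 0.24 (adjusted p = 0.00132). The value in miR92a 1 was a single count, and without that library the adjusted p was 0.0719; leaving out the other libraries gave 0.0617 to 0.244, and the log2 fold changes over all 6 were -1.33 to -1.22. EIF5A2 is the pathway gene printed above with its seed match, and its 3′ UTR also held 2 matches to hsa-miR-92a-3p.

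EIF5A had 469, 541 and 609 CPM in the miR92a libraries, against 465, 459 and 428 CPM in the scramble libraries. Its groups did not overlap, but the libraries numbered 1 differed by less than the counting error of miR92a 1 (345 counts, 421 to 522 CPM). Its log2 fold change was 0.27 ± 0.11 (edgeR adjusted p = 0.317). With the block EIF5A rose by 0.27 ± 0.09 (adjusted p = 0.0482), and the call was lost without the pair numbered 2 at a like size (0.28, adjusted p = 0.242) and without the pair numbered 3 at a smaller one (0.16, adjusted p = 0.158). On group alone it was 0.18 without miR92a 3. EIF5A has near-identical copies, of which EIF5AP2 had 3 to 242 counts, and its exons overlap those of GPS2 on the opposite strand, which had 14 to 877 counts, so its value is uncertain where reads are shared. The hypusine enzymes DHPS and DOHH did not pass in either fit, with log2 fold changes of 0.13 ± 0.13 and 0.22 ± 0.15.

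In the transport category of 5 tested genes, SLC18B1, a vesicular polyamine transporter, fell with the block, by 0.54 ± 0.13 (edgeR adjusted p = 0.0123), but not on group alone (-0.49 ± 0.27, adjusted p = 0.512). It had 14.97, 16.9 and 25.8 CPM in the miR92a libraries, against 23.9, 22.3 and 40.0 CPM in the scramble libraries. The groups overlapped, and the blocked call was lost without the pair numbered 3 (adjusted p = 0.149), where the log2 fold change was still -0.45. On group alone, leaving out a library gave -0.79 (without miR92a 3) to -0.17 (without scramble 3), with -0.31 without miR92a 2. SLC3A2, the heavy chain shared by several amino acid transporters, averaged 204 ± 41.7 CPM in miR92a and 171 ± 6.83 CPM in scramble libraries, and ATP13A2, a lysosomal polyamine exporter, 57.1 ± 7.87 and 59.1 ± 8.88 CPM. Neither passed on group alone or with the block, where SLC3A2 differed by 0.28 ± 0.09 (adjusted p = 0.0515), and SLC3A2 passed as higher in the blocked fit without the pair numbered 1. SLC7A1, a carrier of arginine and ornithine with a seed match in its 3′ UTR, had 73.5, 62.0 and 51.3 CPM in the miR92a libraries, against 61.8, 56.3 and 39.7 CPM in the scramble libraries. It did not pass in either fit, was higher in the miR92a library of each number, by 0.25, 0.14 and 0.37 on the log2 scale, and had a log2 fold change of 0.19 ± 0.19.

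The remaining categories had no member past the threshold in either fit. Among 6 relatives of the synthesis enzymes and antizymes, the ornithine aminotransferase OAT averaged 640 ± 107 CPM in miR92a and 695 ± 225 CPM in scramble libraries and the arginase ARG2 4.45 ± 0.80 and 4.68 ± 0.34 CPM. Of 3 tested catabolic genes, the spermine oxidase SMOX averaged 8.43 ± 1.16 CPM in miR92a and 8.25 ± 1.69 CPM in scramble libraries and SAT2 3.86 ± 2.53 and 3.88 ± 0.99 CPM. Of 8 genes of methionine supply and salvage, the S-adenosylmethionine synthetase MAT2A averaged 408 ± 57.9 CPM in miR92a and 428 ± 62.3 CPM in scramble libraries and AHCY 228 ± 15.8 and 247 ± 31.0 CPM. MTAP, which recycles the by-product of both aminopropyl transfers, had 0, 58 and 41 counts in the miR92a libraries and 51, 48 and 62 counts in the scramble libraries, and its longest 3′ UTR holds 2 seed matches. Among 4 tested regulators of ODC1 transcription, MYC had a log2 fold change of 0.04 ± 0.15 and its antagonist MXD1 one of -0.14 ± 0.18.

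**Figure D4:**
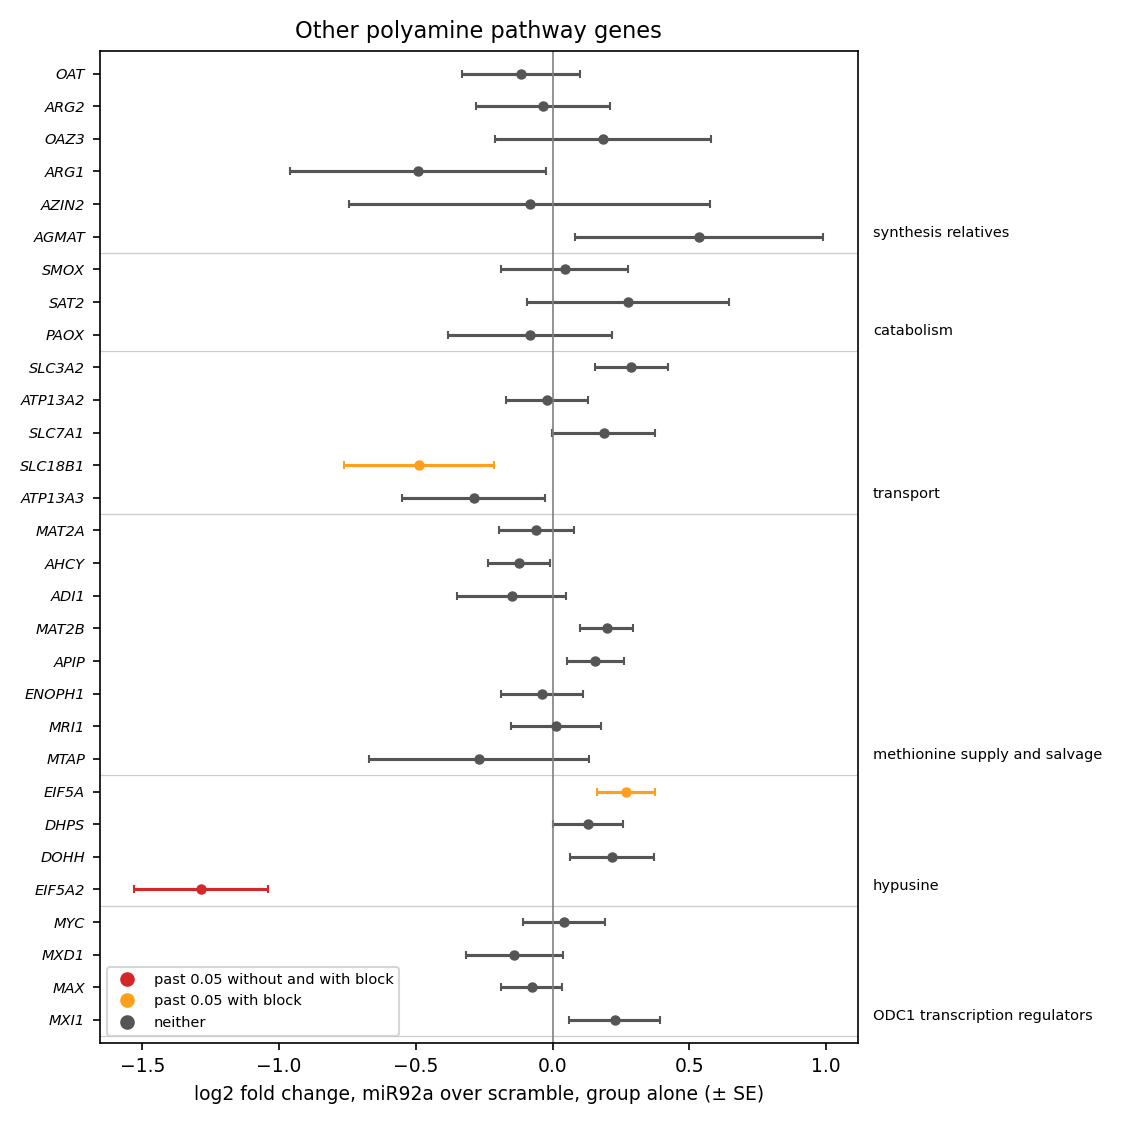
Log2 fold change of the 30 other polyamine pathway genes with enough counts, miR92a over scramble, on group alone with its SE, grouped by role and ordered by mean level. EIF5A2 (-1.28) is the gene past the threshold in both fits, and SLC18B1 and EIF5A passed with the replicate block.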

How the data were processed

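Estimated counts per gene symbol, made by the authors with kallisto per the labels' protocols and deposited as whole numbers, were used without rescaling; GRCh38 is the build in the submitters' processing notes. The kallisto version, annotation and strand setting are not given in the sources used here. Groups and replicate numbers come from the sample titles, and columns were matched by the names in the labels. The series was sequenced as read pairs with a stated average of 62 M.

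Counts were filtered with filterByExpr, scaled by TMM and tested in edgeR 4.0.16 (R 4.3.3) by quasi-likelihood, group being the sole term, and p-values were adjusted by Benjamini and Hochberg's method over 14543 genes; SE were derived from the log2 fold change and its F. CPM are TMM-scaled. Alternatives used DESeq2 1.42.0, limma-voom 3.58.1, other scalings and filters, thinning by 1 random draw, left-out libraries and the replicate number as a block. The labels do not say what the numbers mark. Over all tested genes, the deviations of libraries 1, 2 and 3 from their group means were correlated with those of the like-numbered library. The correlations were 0.154, 0.16 and 0.42, each above 0.1, so blocked values are given, while miR92a 2 with scramble 1 gave 0.0993. In 4829 abundant genes, averaging 1000 counts or more, the like-numbered values were 0.37, 0.475 and 0.634. There miR92a 2 with scramble 1 gave 0.517, above the values of numbers 1 and 2. The matching of numbers 1 and 2 is therefore uncertain, and number 3 alone stands apart. The code was tested on simulated counts.

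The members and lists were chosen with earlier results of these data known. All members are named. Of the other pathway genes those past the threshold in either fit, and the 2 most abundant per category, are named. MTAP, DOHH, SLC7A1, MAT2B, APIP, ADI1 and further values were added after they were seen. Sequences are from RefSeq and GENCODE v29, read with Python 3.11.15; figures used matplotlib 3.10.9.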

Additional observations from a re-analysis of the deposited data

How the results depend on the processing

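On group alone 0 members passed as lower or higher, and with the replicate block 2 and 1 did. This paired fit also gave 2 lower and 1 higher pathway genes in place of 1 and 0. The ODC1 to OAZ1 ratio was not part of that fit. Its log2 difference averaged over the numbered pairs was 0.23 ± 0.06 (SE). That mean equals the difference of the group means by arithmetic, so it does not test the pairing. With the pairs left out in turn the block gave 1 lower and 0 to 1 higher members, and 2 lower and 0 to 2 higher pathway genes. The lower pathway genes were EIF5A2 and SLC18B1 without the pair numbered 1 or 2, and EIF5A2 and ADI1 without the pair numbered 3. With libraries left out in turn on group alone, 0 to 1 members were lower (SRM, without scramble 3) and 0 higher, 0 pathway genes passed, and the ODC1 to OAZ1 difference was 0.00134 to 0.400. The pathway call was 0 with total counts alone, where EIF5A2 had an adjusted p of 0.0525, and 0 with DESeq2, which gave EIF5A2 no adjusted p; thinning to the shallowest library gave 0, since EIF5A2 was then filtered out. Over 17 alternatives, ODC1 and SMS were always higher and AMD1, SRM, AZIN1 and SAT1 always lower, while OAZ1 changed sign in 6 and OAZ2 in 7. The alternatives refit the same libraries or parts of them, so their signs are not independent of each other. ODC1 ranged from 0.01, without scramble 3, to 0.32, and SMS from 0.22 to 0.36. SRM ranged from -0.90 to -0.38, SAT1 from -0.61 to -0.08, AMD1 from -0.41 to -0.05 and AZIN1 from -0.32 to -0.06. The lowest values of AMD1 and AZIN1 came from the thinning, which was 1 random draw. The depth of miR92a 1, where 3 counts stand for 4.08 CPM, limits the genes of low level. The cause of these changes was not tested.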
